A study of Mus musculus with 4 samples.

Results

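The genes described here are the 4 Notch receptors (Notch1, Notch2, Notch3 and Notch4), their 5 canonical ligands (Jag1, Jag2, Dll1, Dll3 and Dll4) and the feedback gene Nrarp, 10 genes chosen by symbol out of 23746 gene rows. Their mRNA levels were compared in 4 primary mammary tumors of female mice, 2 of them triple-mutant and 2 double-mutant. Both genotypes carried the WapCre transgene and floxed Brca1 and p53, and the triple-mutant tumors carried floxed Rank (Tnfrsf11a, the receptor of RANK ligand) in addition, so each difference below is between tumors with and without a floxed Rank allele on a shared Brca1 and p53 background. The Wap promoter drives Cre in mammary epithelial cells, luminal and basal, while vessels, fibroblasts and blood cells of the host keep the floxed alleles, and RNA of whole tumors mixes them all. The triple-mutant tumors are numbered 26043 and 26044 and the double-mutant tumors 26048 and 26050, and 4 values given in a row below follow that order. The labels give neither the age of the mice nor whether the tumors of a genotype came from separate animals, so p-values measure only the spread between these samples.

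Notch receptors are cut open by ligands on a neighbouring cell. The ligand is pulled into its own cell by endocytosis, ADAM proteases and gamma-secretase then cleave the stretched receptor, and the freed intracellular domain enters the nucleus, where it joins the DNA-binding protein RBPJ and Mastermind co-activators to switch on Hes and Hey repressor genes and Nrarp. NRARP binds the same nuclear complex and limits it, so that its mRNA is widely read as a record of Notch activity. In the mammary gland Notch activity favours the luminal lineage, ligands such as Dll1 and Jag1 are found on basal (myoepithelial) cells, Dll4 and Notch4 are known from endothelium and Notch3 from the mural cells around vessels as well as from luminal cells.

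The promoters of the 4 genes with the clearest difference between the genotypes (Jag1, Jag2, Dll1 and Nrarp) and of 2 direct targets of the pathway, Hes5 and Hey2, which had their highest level in the same tumor as Nrarp, are shown for the motifs through which Notch targets are read. Each is the stretch of 260 bases on GRCm38.p6 from 250 bases before the RefSeq transcript start to 10 after it, written 5′ to 3′ on the strand of the gene. Capitals mark matches, on either strand, to the RBPJ core TGGGAA, to the N box CACNAG that HES repressors bind and to the E box CACGTG that HEY repressors bind.
Jag1, chr2:137116511-137116770, minus strand: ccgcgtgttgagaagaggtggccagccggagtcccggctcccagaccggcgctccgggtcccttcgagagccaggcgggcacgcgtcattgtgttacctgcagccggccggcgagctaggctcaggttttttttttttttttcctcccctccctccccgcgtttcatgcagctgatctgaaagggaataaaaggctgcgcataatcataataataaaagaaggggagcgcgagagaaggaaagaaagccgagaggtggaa
Jag2, chr12:112929486-112929745, minus strand: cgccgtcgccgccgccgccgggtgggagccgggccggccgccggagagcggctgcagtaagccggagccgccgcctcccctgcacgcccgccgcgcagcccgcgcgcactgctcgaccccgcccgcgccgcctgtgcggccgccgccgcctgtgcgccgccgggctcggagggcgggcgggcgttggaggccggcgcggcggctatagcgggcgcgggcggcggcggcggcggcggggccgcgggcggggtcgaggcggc
Dll1, chr17:15375814-15376073, minus strand: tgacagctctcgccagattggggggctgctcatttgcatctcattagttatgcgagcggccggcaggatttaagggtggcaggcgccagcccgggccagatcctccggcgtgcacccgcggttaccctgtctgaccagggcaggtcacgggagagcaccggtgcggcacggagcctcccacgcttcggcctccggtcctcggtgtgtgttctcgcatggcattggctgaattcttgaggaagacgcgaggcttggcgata
Nrarp, chr2:25180508-25180767, plus strand: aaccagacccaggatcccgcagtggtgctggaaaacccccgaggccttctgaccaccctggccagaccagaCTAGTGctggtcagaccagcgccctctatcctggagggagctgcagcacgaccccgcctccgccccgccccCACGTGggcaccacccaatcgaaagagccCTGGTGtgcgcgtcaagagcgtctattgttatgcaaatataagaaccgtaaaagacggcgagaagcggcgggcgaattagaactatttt
Hes5, chr4:154960673-154960932, plus strand: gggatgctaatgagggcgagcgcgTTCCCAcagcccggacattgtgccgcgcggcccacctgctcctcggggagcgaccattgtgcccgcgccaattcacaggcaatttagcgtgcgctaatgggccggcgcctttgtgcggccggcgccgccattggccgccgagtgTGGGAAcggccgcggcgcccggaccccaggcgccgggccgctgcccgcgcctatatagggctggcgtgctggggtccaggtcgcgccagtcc
Hey2, chr10:30842774-30843033, minus strand: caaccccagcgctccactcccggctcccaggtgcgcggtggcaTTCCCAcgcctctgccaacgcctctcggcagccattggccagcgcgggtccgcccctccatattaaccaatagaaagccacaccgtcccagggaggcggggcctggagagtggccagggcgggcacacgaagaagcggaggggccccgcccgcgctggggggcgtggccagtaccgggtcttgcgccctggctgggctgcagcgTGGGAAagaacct
Over the full window of 300 bases (250 before and 50 after the start), the RBPJ core was found in 0 of the 10 receptor, ligand and Nrarp promoters, against 25.6% of all 32851 RefSeq mouse promoters of that length. The promoters of Hes5 and Hey2 each held 2 copies, at positions -226 and -82 in Hes5 and at -207 and across the start in Hey2 (positions are counted from the start, and the base before it is -1). Among the other Hes and Hey genes, Hes7 held 1 copy and Hes6 held 0. No promoter of Hes1, Hes2, Hes3, Hey1 or Heyl was available for this search. An N box was found in 5 of the 10 promoters, against 42.5% of all promoters. Nrarp held 2 N boxes, at -179 and -79, and was the only promoter of the 10 with the E box, at -108, which 7.15% of all promoters hold. The Jag2 promoter had the highest GC content of the 10, 86.0%, against a median of 52.7% over all promoters. These matches describe letters in this window only.

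Among the ligands, Jag2, Dll1 and Jag1 each had a severalfold higher level in triple-mutant than in double-mutant tumors, as did Nrarp. Levels are given in FPKM, the estimated number of fragments for each kilobase of transcript, scaled to the total of mapped fragments, which lets genes be compared per unit of length. Differences were tested with limma on log2(FPKM + 1) over the 12752 gene rows that reached 1 FPKM in 2 or more of the tumors, adjusting p-values by Benjamini-Hochberg over all of them, and fold changes on this scale understate those of low genes. Of the 10 genes, 9 passed this filter and Dll3 did not. None of the 9 passed an adjusted p of 0.05, and neither did any other gene (0% of the 12752), where the smallest adjusted p was 0.0644 and 1252 genes had an unadjusted p under 0.05. With 2 tumors against 2, a two-sided exact permutation test on any single value has a smallest possible p of 0.333.

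Both triple-mutant tumors lay above both double-mutant tumors for 6 of the 9 tested genes (Jag1, Jag2, Dll1, Dll4, Notch3 and Nrarp) and below them for 0. Over all genes tested, 21.3% lay above in this way and 22.9% below. Each of the 6 had a log2 fold change of at least 1, which 7.3% of all genes combined with this order. An unadjusted p under 0.05 with the higher level in triple-mutant tumors was reached by 4 of the 9 (Jag1, Jag2, Dll1 and Nrarp), against 5.91% of all genes. For the same 4 genes the smallest difference between tumors of different genotype exceeded the largest difference between tumors of the same genotype on the log2 scale, which held in this direction for 6.93% of all genes. The median log2 fold change was 1.67 over the 9 genes and -0.02 over all genes tested.

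**Figure D1:**
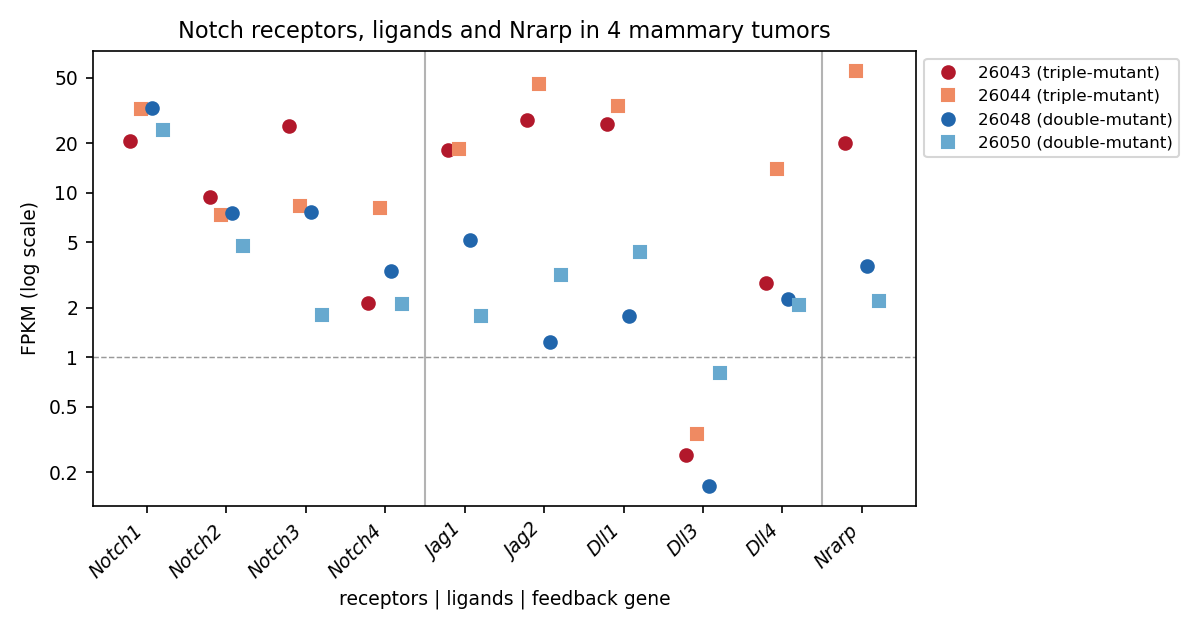
FPKM on a log axis of the receptors, ligands and Nrarp, 1 point for each tumor (reds triple-mutant, blues double-mutant), with receptors, ligands and the feedback gene set apart by vertical lines and a dashed line at 1 FPKM. Jag2, Dll1, Jag1 and Nrarp show a clear gap between the genotypes, while Notch1, Notch2 and Notch4 overlap and the 2 triple-mutant points of Dll4 and Notch3 lie far apart.

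Jag2, a Jagged-family ligand (chr12:112908590-112929495 on mm10, the coordinates of the deposited tables), was measured at 27.6, 45.7, 1.23 and 3.17 FPKM. The lower triple-mutant tumor was 8.73-fold above the higher double-mutant tumor. Its log2 fold change was 3.58 ± 0.48 (SE, n = 2 per genotype; limma, unadjusted p = 0.000964, adjusted p = 0.184), the smallest p of the 10 genes and the 65th smallest of all 12752. In the ranking of all genes by FPKM within a tumor, Jag2 lay at percentiles 48.9 and 57.7 in the double-mutant tumors and at 84.7 and 91.4 in the triple-mutant tumors.

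Dll1, a Delta-like ligand that marks basal cells in the mammary gland (chr17:15367354-15375823), had 26.3 and 33.5 FPKM in the triple-mutant tumors and 1.79 and 4.38 FPKM in the double-mutant tumors. The gap between the genotypes was again wide, with the lower triple-mutant tumor 6.002-fold above the higher double-mutant tumor, and the log2 fold change was 2.99 ± 0.44 (SE; limma, adjusted p = 0.205). Jag1, the ligand in which both triple-mutant tumors were closest to each other (chr2:137081451-137116520), was at 18.2, 18.5, 5.18 and 1.77 FPKM. Here the spread lay in the double-mutant pair, and the lower triple-mutant tumor was 3.52-fold above tumor 26048, with a log2 fold change of 2.22 ± 0.48 (SE; limma, adjusted p = 0.363). The double-mutant tumors did not rank alike for these ligands, since Jag1 was higher in 26048 and Jag2 and Dll1 were higher in 26050.

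Dll4, a ligand best known for its role in sprouting vessels (chr2:119325784-119335666), stood at 2.85, 13.9, 2.26 and 2.08 FPKM. Tumor 26044 alone was high, 4.90-fold above the next tumor, and the other 3 tumors lay close together. The log2 fold change of 1.26 ± 0.71 (SE; limma, adjusted p = 0.604) fell to 0.28 without tumor 26044, so it rests on that tumor. The tables list a predicted gene, Gm14207, that overlaps Dll4, and how fragments were divided between the overlapping genes is not known. Dll3, which does not activate Notch receptors on other cells, was under 1 FPKM in each tumor, at 0.255, 0.341, 0.166 and 0.800, with no test and overlapping genotypes.

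The 5 ligands together summed to 75.3 and 112 FPKM in the triple-mutant tumors and to 10.6 and 12.2 FPKM in the double-mutant tumors. The lower triple-mutant sum was 6.17-fold above the higher double-mutant sum (exact permutation test, two-sided p = 0.333, the smallest that this design allows). The makeup of that sum differed less by family than by gene. Jagged ligands made up 60.9% and 57.3% of the sum in triple-mutant tumors and 60.3% and 40.5% in double-mutant tumors, which overlap (exact permutation test, two-sided p = 0.667). Jag2 contributed 36.7% and 40.8% in triple-mutant tumors against 11.6% and 26.0% in double-mutant tumors, whereas the share of Dll4 was lower in triple-mutant tumors, 3.78% and 12.4% against 21.3% and 17.0%. The share of Jag1 was 24.2%, 16.5%, 48.7% and 14.5%, with tumor 26048 far above the other three. Shares by gene depend on the estimate used. At the midpoints of the confidence intervals deposited with the FPKM, Jag2 was at 14.6 and 22.0 in the triple-mutant tumors, below Dll1 at 22.1 and 27.7.

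Of the 4 receptors, only Notch3 separated the genotypes, and narrowly, with both triple-mutant tumors higher, as held for 21.3% of all genes tested. Notch1, the receptor with the highest mean level in these tumors (chr2:26457902-26503822), was at 20.5, 32.4, 32.9 and 24.2 FPKM. Each genotype held a higher and a lower tumor, and the log2 fold change was -0.12 ± 0.36 (SE; limma, adjusted p = 0.922). Notch2 (chr3:98013538-98150367) was at 9.42, 7.31, 7.55 and 4.72 FPKM, and its genotypes overlapped narrowly, with a log2 fold change of 0.41 ± 0.37 (SE; limma, adjusted p = 0.726). These standard errors leave room for differences of either sign in both receptors.

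Notch3, which acts in mural cells and in luminal progenitors (chr17:32120893-32166852), was at 25.4, 8.31, 7.61 and 1.82 FPKM. Tumor 26043 was the highest and 26050 the lowest, while 26044 and 26048, of different genotype, differed by only 1.09-fold. Its log2 fold change was 1.67 ± 0.79 (SE; limma, adjusted p = 0.559), and the genotypes no longer separated after rescaling to TPM or with the midpoint of the confidence interval in place of the FPKM. Notch4, the endothelial receptor (chr17:34564295-34588543), was at 2.14, 8.10, 3.35 and 2.102 FPKM. As for Dll4, tumor 26044 alone stood high, 2.42-fold above the next tumor, and the log2 fold change of 0.54 ± 0.61 (SE; limma, adjusted p = 0.782) turned to -0.22 without it.

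The summed level of the 4 receptors was 57.5, 56.1, 51.4 and 32.8 FPKM, a narrow range beside that of the ligands. Ligand FPKM per receptor FPKM came to 1.31 in 26043 and 1.996 in 26044, against 0.207 in 26048 and 0.372 in 26050 (exact permutation test, two-sided p = 0.333, the smallest allowed). Summed ligand mRNA therefore exceeded summed receptor mRNA in both triple-mutant tumors and stayed below it in both double-mutant tumors. Within the receptor sum, Notch1 took 35.7% and 57.7% in triple-mutant tumors and 64.0% and 73.7% in double-mutant tumors. Notch3 took 44.2% in tumor 26043 and 14.8%, 14.8% and 5.54% in the other three, so the receptor that led the sum in 26043 was Notch3 and in the others Notch1.

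**Figure D2:**
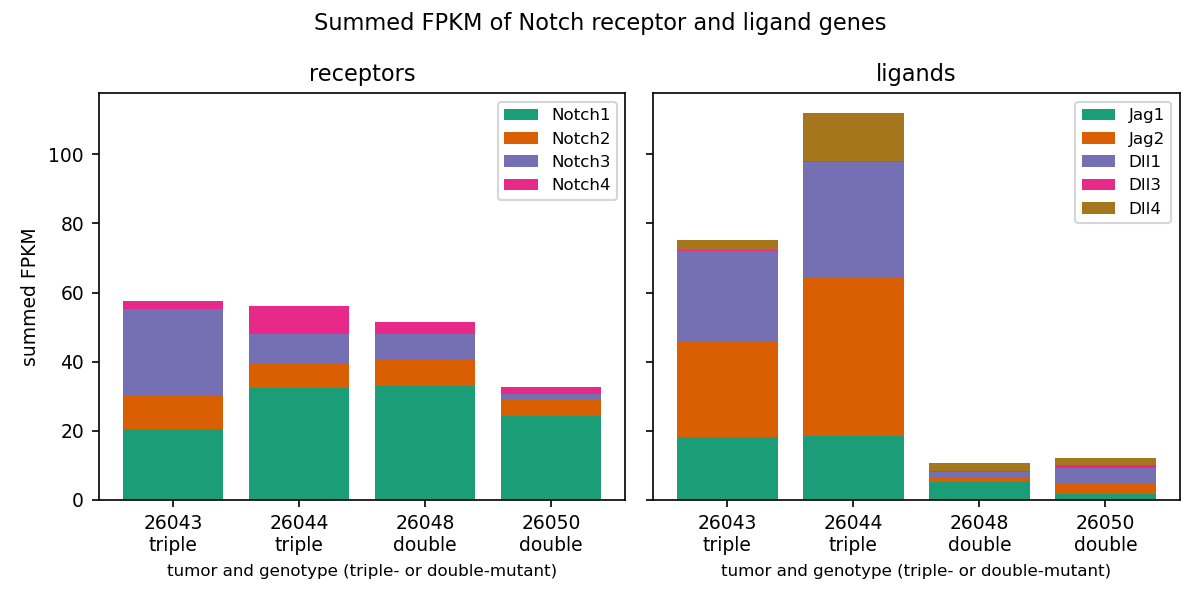
Stacked bars of FPKM for each tumor, receptors in the left panel and ligands in the right, with the genes of each class as segments. The receptor stacks reach 57.5, 56.1, 51.4 and 32.8 FPKM, while the ligand stacks reach 75.3 and 112 FPKM in the triple-mutant and 10.6 and 12.2 FPKM in the double-mutant tumors.

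Nrarp (chr2:25180758-25183332), whose transcription is switched on by the Notch complex that its protein then restrains, was at 20.05, 54.6, 3.60 and 2.21 FPKM. The triple-mutant values lay above the double-mutant values, the lower of them by 5.56-fold, and 26044 was 2.72-fold above 26043. The log2 fold change was 3.15 ± 0.57 (SE; limma, unadjusted p = 0.00353, adjusted p = 0.284), and it stayed between 2.45 and 3.85 when each tumor was left out in turn. Set against the receptors, Nrarp reached 0.349 and 0.973 FPKM per FPKM of summed receptor in triple-mutant tumors and 0.0701 and 0.0673 in double-mutant tumors.

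**Figure D3:**
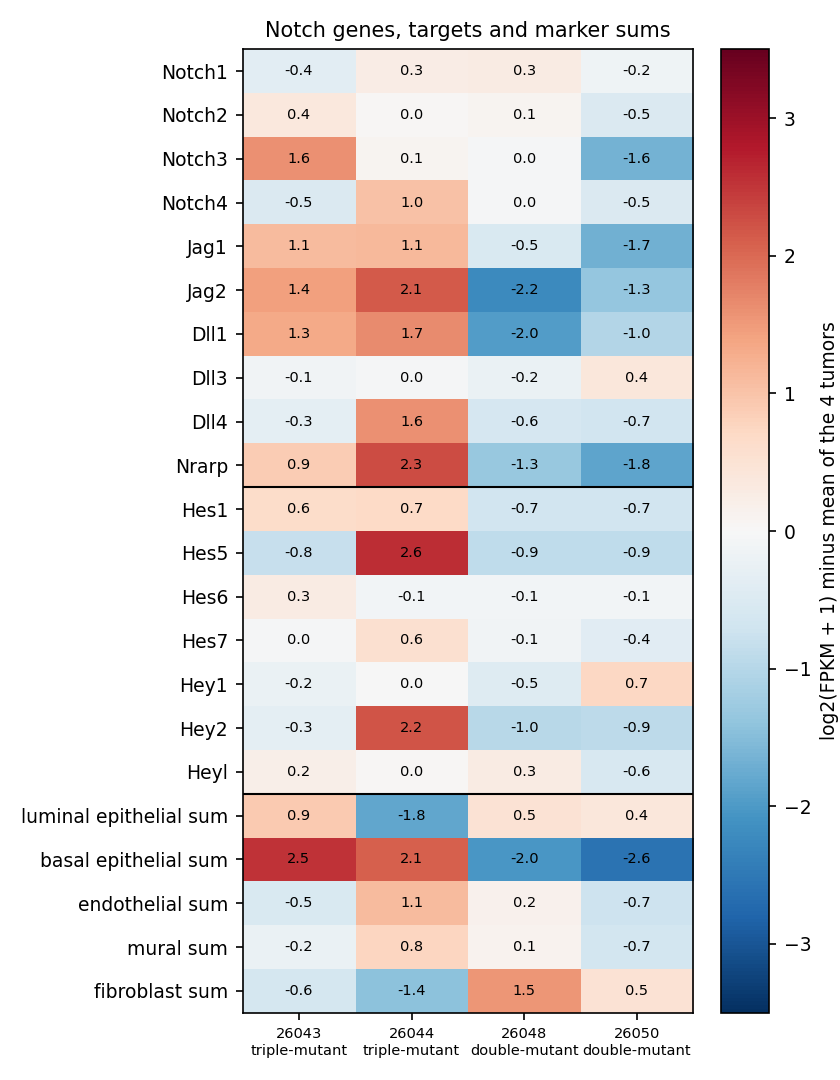
Heat map of log2(FPKM + 1) in each tumor minus the mean over the 4 tumors, with the value written in each cell (receptors, ligands and Nrarp at the top, bHLH target genes in the middle, summed markers of 5 cell types at the bottom). Jag1, Jag2, Dll1 and Nrarp are positive in both triple-mutant and negative in both double-mutant tumors, Dll4 and Notch4 are high in tumor 26044 alone, and the basal marker sum is positive in both triple-mutant tumors.

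Tumor 26044 differed from the others in its markers of cell types. The 10 luminal epithelial markers summed to 441 FPKM in 26044 and to between 2030 and 2920 FPKM in the other three, and Epcam was at 25.7 FPKM against 347 to 516. The keratins Krt8 and Krt18 and Epcam carry much of that sum, and not every luminal marker was low in 26044, since Krt19 (1154, 194, 139 and 56.7 FPKM), Foxa1 (40.9, 8.44, 3.62 and 0.341 FPKM), Esr1 and Pgr were higher there than in both double-mutant tumors. The 8 endothelial markers, none of them at 0 in any tumor, summed to 122 FPKM in 26044 and to between 33.8 and 62.4 FPKM in the others. The 6 mural markers summed to 69.6 FPKM in 26044 against 25.5 to 44.2 FPKM. Rgs5, at 29.6 FPKM in 26044, carried much of that mural sum, and Kcnj8, Abcc9 and Higd1b were also highest there. Pdgfrb (9.32, 10.9, 18.4 and 7.15 FPKM) and Cspg4 (6.43, 4.10, 6.16 and 2.50 FPKM) were not highest in 26044, and neither was the endothelial marker Tek. The part of endothelial and mural cells in the high Dll4, Notch4 and Nrarp values of this tumor was not tested. The endothelial sum of tumor 26043, 38.2 FPKM, lay between those of the double-mutant tumors (62.4 and 33.8).

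The sum of basal epithelial markers was high in the same tumors as the ligands. The 8 markers summed to 1751 and 1287 FPKM in the triple-mutant tumors and to 73.0 and 48.9 FPKM in the double-mutant tumors, and 6 of the 7 that passed the filter were higher in both triple-mutant tumors (21.3% of all genes), with none at 0 in any tumor. Most of the sum in 26044 came from Acta2 (64.8, 898, 59.7 and 31.8 FPKM), which nearly tied between 26043 and 26048. Mylk (3.06, 8.01, 3.65 and 1.67 FPKM) and Myh11 overlapped. Trp63, the master regulator of basal epithelium, was at 28.5, 48.1, 1.24 and 0.670 FPKM. The basal keratin Krt5 was at 596, 114, 1.15 and 2.06 FPKM. The part of basal cells in the difference of Jag1, Jag2 and Dll1 was not tested, and in RNA of whole tumors fewer cells of a type and less RNA per cell cannot be told apart. Fibroblast markers lay the other way, 196 and 112 FPKM summed in the triple-mutant against 881 and 425 FPKM in the double-mutant tumors. Collagen genes dominate these sums. Of the 6 markers, 4 were lower in both triple-mutant tumors (22.9% of all genes), while Pdgfra was higher (2.90, 19.1, 1.63 and 1.44 FPKM) and Dcn overlapped. Adipocyte markers were high in 26048 only (127 FPKM against 0.0631 to 1.53) and skeletal muscle markers in 26050 only (28.9 FPKM against 0.627 to 0.689).

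As a check of the labels, Tnfrsf11a was at 2.07 and 0.962 FPKM with the floxed Rank allele and at 10.6 and 11.9 FPKM without it. Brca1 was at 3.26, 3.28, 3.84 and 5.69 FPKM and Trp53 at 15.7, 87.8, 150 and 103 FPKM, and as both genotypes carry these floxed alleles, their levels do not check the labels. Over all genes tested, the median absolute log2 difference was 0.449 between 26043 and 26044, 0.358 between 26048 and 26050 and 0.374 to 0.569 between tumors of different genotype. The double-mutant tumors were thus closer to each other than to either triple-mutant tumor, while the triple-mutant pair lay within the range between genotypes. Tumor 26043 was closer to both double-mutant tumors (0.374 to 26048 and 0.444 to 26050) than to 26044. FPKM do not give the depth of a tumor, which is unknown here. The confidence intervals deposited with the FPKM extended 3.7% to 27.3% either side of their midpoint for the genes above other than Dll3, but only 10 of the 40 values of the 10 genes lay inside their own interval, 29 lay above it and 1 below, so the intervals were not used as errors.

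Around these genes, 65 further genes of the pathway were listed by role, of which 57 passed the filter. Of these, 27 were higher in both triple-mutant tumors, 3 were lower in both and 27 overlapped, beside 21.3% higher and 22.9% lower among all genes, and none passed an adjusted p of 0.05. Of the 27, 10 had a log2 fold change of at least 1 (7.3% of all genes), and an unadjusted p under 0.05 was reached by 10 genes, each higher in triple-mutant tumors (5.91% of all genes). The median log2 fold change of the 57 was 0.34. Dlk1 (1.73, 1.08, 0.350 and 0.300 FPKM) and Dlk2 reached 1 FPKM in the triple-mutant tumors only, and so passed the filter through them alone. Both are counted among the 27 and among the 10 with an unadjusted p under 0.05.

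**Figure D4:**
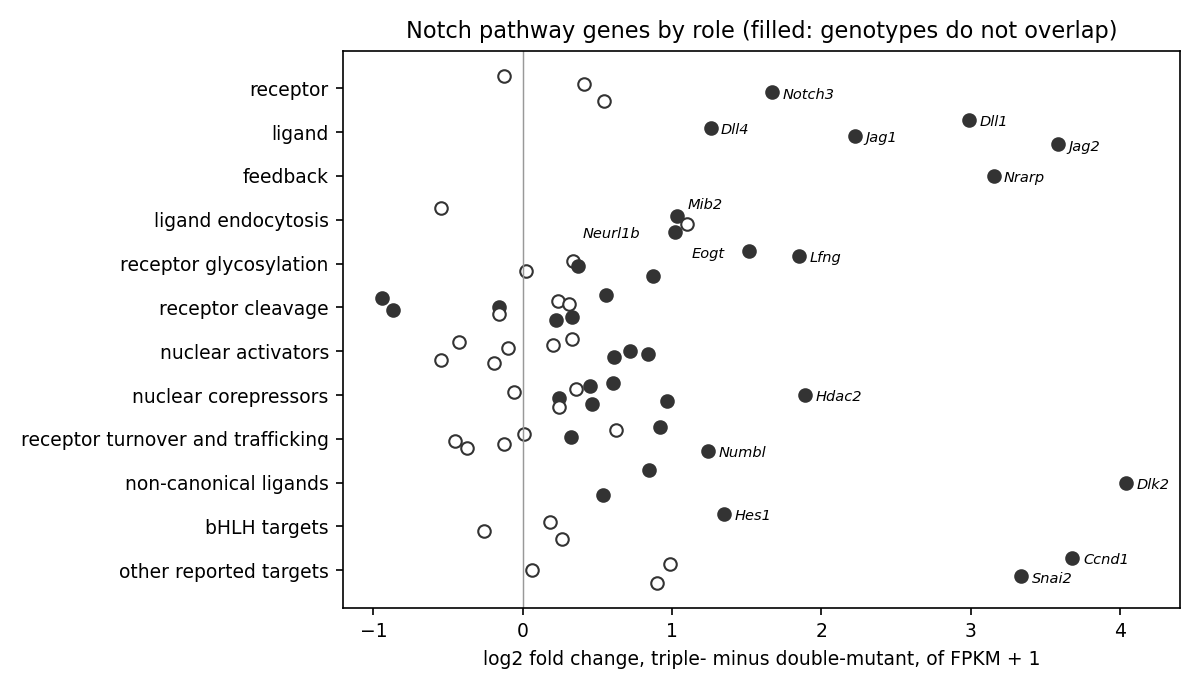
Log2 fold change, triple-mutant minus double-mutant, of FPKM + 1 for each tested pathway gene (1 point a gene), in rows by role. Filled points mark genes whose genotypes do not overlap, and names are given where such a gene differs by at least 1. The ligands and Nrarp lie to the right of 1, and the receptor cleavage genes and nuclear activators lie within 1 of 0.

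Genes that act on the ligand or on the sugars of the receptor were among those with a higher level in triple-mutant tumors. Mib2, a ubiquitin ligase that starts endocytosis of ligands, was at 14.6, 13.2, 6.51 and 5.998 FPKM, with a log2 fold change of 1.04. Neurl1b, another ligase of this kind, was at 3.87, 2.38, 0.976 and 1.03 FPKM, a log2 fold change of 1.02. In contrast to Mib2, its relative Mib1 was at 10.5, 4.75, 12.5 and 9.44 FPKM and overlapped. Lfng, the Lunatic Fringe glycosyltransferase that raises the response of Notch1 to Delta-like ligands and lowers that to Jagged ligands, was at 68.5, 56.0, 22.1 and 12.2 FPKM, with a log2 fold change of 1.85. Mfng, the Manic Fringe relative, was lower in level and overlapped, at 2.76, 4.82, 3.56 and 2.01 FPKM. Eogt (listed under its older symbol), an enzyme that adds N-acetylglucosamine to receptor EGF repeats, had a log2 fold change of 1.52, with 33.9 FPKM in 26044 and 11.5, 6.50 and 6.07 FPKM in the other three. Of the 6 glycosylation genes tested, 4 were higher in both triple-mutant tumors and 0 lower (21.3% and 22.9% of all genes).

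The genes of receptor cleavage lay on both sides. Of 9 tested, 3 were higher and 3 lower in both triple-mutant tumors (21.3% and 22.9% of all genes), the latter being the proteases Furin and Adam17 and the gamma-secretase subunit Ncstn (54.3, 26.2, 72.2 and 67.2 FPKM). Of 9 nuclear activators, 3 were higher (21.3% of all genes), the Mastermind genes Maml1, Maml2 and Maml3, and 6 overlapped. The gaps were narrow, the lower triple-mutant tumor being 1.05-, 1.03- and 1.17-fold above the higher double-mutant tumor for Maml1, Maml2 and Maml3. Rbpj itself was at 36.7, 12.5, 30.0 and 34.1 FPKM, with 26044 below the other three. Of 9 corepressors, 6 were higher in both triple-mutant tumors and 0 lower (21.3% and 22.9% of all genes), the narrowest of these gaps being 1.005-fold. Among them, Hdac2 had a log2 fold change of 1.89, but its values of 74.7, 307, 30.6 and 52.6 FPKM were dominated by tumor 26044. Numbl, a relative of the Notch inhibitor Numb, was at 12.4, 21.3, 6.35 and 6.28 FPKM, whereas Numb was at 10.1, 4.98, 9.59 and 9.49 FPKM.

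Dlk2, a Delta-like protein that lacks the domain through which canonical ligands bind and is described as an inhibitor of Notch, had the largest log2 fold change of the listed pathway genes, 4.04, and was at 23.9, 13.0, 0 and 0.293 FPKM. Its value in tumor 26048 is listed at 0, and it passed the filter only through the triple-mutant tumors.

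The bHLH repressor genes, the classical targets of Notch, differed from gene to gene. Hes1, induced by Notch in many tissues, was at 71.5, 75.2, 28.1 and 28.3 FPKM, with little spread within either genotype and a log2 fold change of 1.35 (limma, unadjusted p = 0.00406, adjusted p = 0.296). Hes6 (21.2 to 27.8 FPKM), Hey1 and Heyl (1.16 to 2.88 FPKM) overlapped between the genotypes. Hey1 was highest in the double-mutant tumor 26050, at 10.5, 12.4, 8.85 and 21.4 FPKM. Of the remaining genes, which did not reach the filter, Hes5 was at 0.0761 and 10.3 FPKM in triple-mutant tumors and listed at 0 in both double-mutant tumors, and Hey2 was at 0.798, 9.50, 0.156 and 0.201 FPKM. Both were thus high in 26044 alone, the tumor with the highest Nrarp, Dll4 and endothelial sum. Genes near Hes5 and Hey2 were not compared, so the part of their position in these values was not tested. In tumor 26043, Hes5 was below 0.1 FPKM although Nrarp was at 20.05 FPKM there. Hes7 stayed under 1 FPKM in each tumor, Hes3 was listed above 0 in 26048 only, at 0.0356 FPKM, and Hes2 was listed at 0 in all 4.

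Other genes reported as Notch targets differed among themselves. Ccnd1, which encodes cyclin D1, was at 302, 342, 34.0 and 17.0 FPKM, a log2 fold change of 3.68, and Snai2, which encodes the transcription factor Slug of basal cells, was at 20.9, 14.98, 1.42 and 0.413 FPKM, a log2 fold change of 3.34. Myc overlapped, at 82.1, 128, 96.1 and 101 FPKM. Cdkn1a and Sox9 were high in 26043, at 42.8 and 60.4 FPKM, and their genotypes overlapped.

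The genes whose pattern over the 4 tumors was closest to that of the leading members, by distance between centred log2 values among 11561 genes, were named as a description. For Jag2 they were Moxd1 (162, 287, 13.3 and 23.0 FPKM) and Perp, a desmosomal gene of stratified epithelium (288, 315, 16.3 and 25.4 FPKM). For Dll1 they were Plch2 and Fjx1, and for Nrarp Cpxm2 and Antxr1, the latter at 33.0, 88.3, 5.35 and 3.65 FPKM. No test was made of these likenesses.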

How the data were processed

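The authors purified total RNA from mammary tumors, selected polyA RNA, made dUTP strand-marked TruSeq libraries and sequenced them as 50-bp single-end reads. Per the labels, reads were aligned to mm10 with TopHat2 2.0.10 and Bowtie 0.12.9, and the authors deposited FPKM per gene from Cufflinks 2.1.1, with a confidence interval, in a table for each tumor. The submitters' notes also name HTSeq and DESeq2 1.6.2 for counts, which were not analysed here.

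The 4 tables were joined on symbol and position. Rows that reached 1 FPKM in 2 or more tumors were kept. Limma 3.58.1 in R 4.3.3 (lmFit, eBayes with a trend) compared log2(FPKM + 1) of triple-mutant with double-mutant tumors, without a block, and p-values were adjusted by Benjamini-Hochberg at 0.05. The fit was also run on simulated data in which each gene had the same spread, which does not test its p-values for genes of unequal spread. The exact permutation test of summed levels and shares, all two-sided, used scipy 1.17.1. Groups and tumor numbers come from the labels. Depth is not stated by FPKM values, and limited precision is therefore read from the spread between tumors.

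The genes and lists were chosen with earlier results of these data known. Named were the receptors, ligands and Nrarp, the bHLH targets, pathway genes whose genotypes did not overlap with a log2 fold change of at least 1 in size, the markers, and the 2 genes nearest in profile to each of Jag2, Nrarp and Dll1, without predicted and small RNA genes. Other pathway genes (Mib1, Mfng, Furin, Adam10, Adam17, Psen2, Psenen, Ncstn, Maml1 to Maml3, Rbpj, Numb, Dlk1, Myc, Cdkn1a and Sox9) were named after their values were seen. Promoters come from RefSeq, which held all 10 receptor, ligand and Nrarp promoters. The alternatives were a pseudocount of 0.1, no filter or one of 5 FPKM, TPM, median-of-ratios and quantile scaling, the interval midpoint, eBayes without a trend, and each tumor left out.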

Additional observations from a re-analysis of the deposited data

How the results depend on the processing

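No paired analysis was possible because the tumor numbers differ between the genotypes and no label pairs tumors. Jag1, Jag2, Dll1 and Nrarp were higher in triple-mutant tumors under each alternative, with log2 fold changes of 2.17 to 2.55, 3.10 to 4.09, 2.87 to 3.36 and 3.004 to 3.51 over the settings, and of 1.65 to 2.80, 3.13 to 4.03, 2.51 to 3.46 and 2.45 to 3.85 when each tumor was left out. None of the 9 tested receptor, ligand and Nrarp genes passed an adjusted p of 0.05 under any of them. Over all genes, 1 passed with the interval midpoint and 5 with eBayes without a trend, against 0.

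The number of receptor, ligand and Nrarp genes that were higher in triple-mutant tumors was 5 to 7 over the settings and 6 to 8 with a tumor left out, and the number that were lower was 0 to 1 with a tumor left out. Of these genes 9 were tested, except 10 with no filter and 7 with the filter of 5 FPKM, which removed Dll4. The pathway list held 5 lower genes after median-of-ratios scaling, 8 after quantile scaling and 6 to 13 with a tumor left out, against 3, where fewer tumors make separation easier. Without tumor 26043, 26044, 26048 or 26050 in turn, log2 fold changes of changing sign ran from -0.44 to 0.19 for Notch1, -0.22 to 1.31 for Notch4, -0.0083 to 0.37 for Hes6, -0.85 to 0.33 for Hey1 and -0.16 to 0.68 for Heyl. Those values turned sign without 26043 (Notch1, 0.19, and Hes6), 26044 (Notch4), 26048 (Notch1, 0.09) and 26050 (Hey1 and Heyl), and the cause was not tested. Notch3 ranged from 0.86 to 2.48 and Dll4 from 0.28, without 26044, to 2.24. The difference in the Jagged share of ligand FPKM was 5.61 percentage points with the midpoint and ran from -1.22, without 26050, to 18.6 with a tumor left out, against 8.70. With 2 tumors a genotype, leaving out 1 leaves a lone tumor that is assumed to vary like the pair. Depth is unknown, so no limit from counts can be given.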

Other observations

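The genes that lie near the receptors, ligands and Nrarp are given as values, with no test, beside 21.3% higher and 22.9% lower among all genes. The median log2 fold change of the tested genes within 1 Mb was 0.19 around Jag2 (21 genes, 8 higher and 0 lower in both triple-mutant tumors), 0.16 around Dll1 (13 genes, 4 higher and 3 lower), 0.06 around Nrarp (45 genes, 13 higher and 5 lower) and -0.06 around Jag1 (2 genes, 0 higher and 0 lower). Over the 10 genes these medians ran from -0.46 around Notch2 to 0.24 around Notch4.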
